A study of Mus musculus with 31 samples.

Results

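The genes described here are the 2 non-muscle actins and 7 genes for small proteins that bind actin monomers or take filaments apart. They are Actb and Actg1 (beta- and gamma-actin), Pfn1 and Pfn2 (profilins), Cfl1, Cfl2 and Dstn (cofilin 1, cofilin 2 and destrin), and Tmsb4x and Tmsb10 (beta-thymosins). They were chosen by name and make up 9 of the 55536 genes in the count tables. All 9 were found by their Ensembl identifiers.

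The study sequenced mRNA pulled down with tagged ribosomes (translating ribosome affinity purification, TRAP) from mouse sensory neurons. Cre mice carried Nav1.8-Cre with L10a-eGFP-fl/fl, so that Cre driven by the gene of Nav1.8, a sodium channel of nociceptors, turns on a GFP-tagged ribosomal protein. Control mice carried L10a-eGFP-fl/fl alone, the floxed allele that all groups share, and give the RNA recovered with no tagged ribosomes. In batch 1, central axons were taken as lumbar dorsal root with spinal cord and somas as lumbar dorsal root ganglia; in batch 2, peripheral axons were taken as sciatic nerve and somas again as lumbar ganglia. Each group had 4 libraries, except the peripheral axon controls with 3. The labels call the replicates biological but name no animals, ages or treatment, and do not say whether animals were pooled, so p-values measure only the spread between these libraries.

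Actin filaments grow by adding actin monomers at one end and shrink by losing them at the other, and this turnover drives growth cones, branching and the movement of membranes in axons. Profilins hand monomers to growing ends, beta-thymosins hold monomers in reserve, and cofilins and destrin sever old filaments and return their monomers. Local translation of beta-actin in axons is a textbook case of mRNA localisation: a "zipcode" in the 3′ untranslated region (UTR) of Actb is bound by the protein ZBP1 (Igf2bp1), which carries the mRNA.

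The first 3 stretches printed next show what sets Actb and Actg1 apart in sequence, since the levels of Actg1 are those that vary most between groups. The last is a promoter motif of Actg1. Positions are those of the GRCm38 (mm10) assembly, every stretch is given 5′ to 3′ on the minus strand, where both genes lie, and the first 3 come from the GENCODE M21 transcripts Actb-201 and Actg1-202. The start of the 2 coding sequences (Actb at chr5:142905657-142905686, Actg1 at chr11:120348062-120348091) differs at the 8 capital positions of 30 bases. Over the whole coding sequence, 88.7% of the 1128 aligned bases are identical.
Actb coding start: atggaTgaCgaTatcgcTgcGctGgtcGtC
Actg1 coding start: atggaAgaAgaAatcgcCgcActCgtcAtT
The pair of zipcode elements (capitals, CGGACT and ACACCC) lies in the 3′ UTR of Actb at chr5:142903767-142903796, with 18 bases between the elements.
Actb zipcode: CGGACTgttactgagctgcgttttACACCC
Searched on the sense strand only, the 2 elements in this order and at most 25 bases apart occur in the first 300 bases of the 3′ UTR in 2 of 15455 genes (0.0129%), and in no other of the 9. A CArG box, the motif that serum response factor binds, searched on both strands and shown in capitals, lies in the promoter of Actg1 at chr11:120348566-120348595.
Actg1 promoter: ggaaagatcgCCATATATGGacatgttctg
In the RefSeq promoter table (GRCm38.p6, 300 bases around each start), 8 of the 9 genes were matched, with 10 promoters, of which only that of Actg1 held the motif; the unmatched gene is Actb, whose promoter was not searched; 1.63% of all 32851 promoters hold it. A match in letters is a description and shows no binding.

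Library depth ran from 3601399 to 19637292 counts, so the limit that a count of 0 allows (3 counts) lay between 0.153 and 0.833 on the counts-per-million (CPM) scale, a gene's counts relative to its library's total. Neuronal markers (10 genes such as Tubb3 and Snap25) summed to 18727 to 39734 CPM in the Cre somas of batch 1 and 26402 to 31190 CPM in those of batch 2. In the Cre axons they summed to 11295 to 23651 CPM (central) and 4346 to 14798 CPM (peripheral). Schwann cell markers were at 11005 to 29051 CPM in the Cre peripheral axons against 662 to 824 CPM in the Cre somas of batch 2, and none of the 10 markers of that list was at 0 in all libraries of a group. Astrocyte markers were at 296 to 1347 CPM in the Cre central axons against 1.98 to 32.0 CPM in the Cre somas of batch 1, with none of 6 at 0 in all libraries of either group. The 9 nociceptor markers, Scn10a (Nav1.8) among them, summed to 886 to 5155 CPM in Cre and 98.7 to 424 CPM in control central axons, where Scn11a and Trpv1 were at 0; in peripheral axons Cre (513 to 1675 CPM) and control libraries (195 to 1301 CPM) overlapped. Spinal neuron markers summed to 84.2 to 291 CPM in the Cre central axons against 1.27 to 6.99 CPM in the Cre somas of batch 1. Oligodendrocyte markers summed to 203 to 1594 CPM against 43.7 to 124 CPM there. The members' levels below are therefore those of mixed RNA: less RNA per cell and fewer cells of a type cannot be told apart. The part of glial and spinal neuron RNA in the differences was not tested. Soma batch 1 control 3 stood apart, with 4934 genes at 10 or more counts (6053 to 7889 in the other 3 controls and 12502 to 14015 in the Cre somas of that batch) and a TMM factor, edgeR's scaling of library size, of 0.0547. Soma batch 1 control b was the highest library for Actb, at 8617 CPM.

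**Figure D1:**
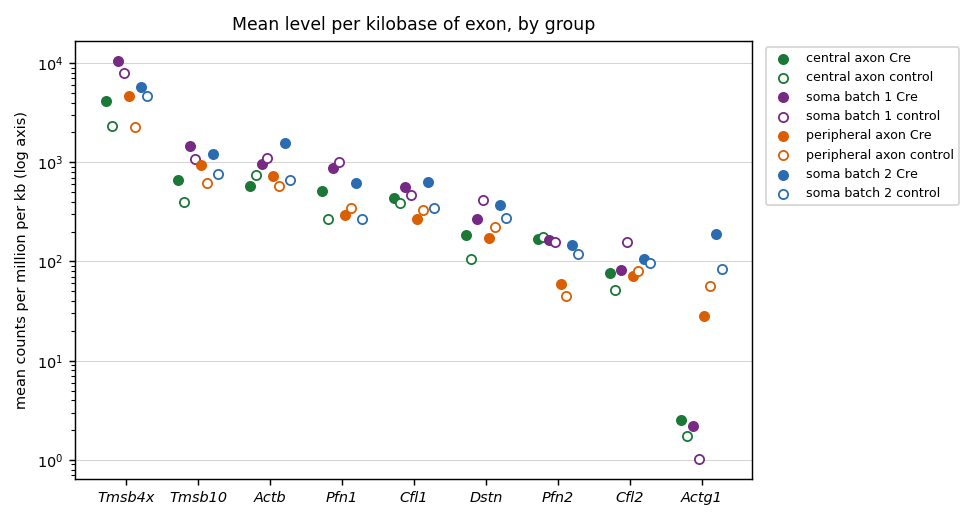
Mean level of each gene per kilobase of exon (CPM per kb, log axis) in the 8 groups. Filled points are Cre groups and open points are controls. Tmsb4x lies above the other 8 genes in every group, and Actg1 spans from 1.03 to 188 CPM per kb between groups.

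Set against each other per kilobase of exon, the 9 genes covered a wide range that the thymosins led. Tmsb4x was highest of the 9 in each of the 8 groups, from 2281 ± 2071 CPM per kb (SD, n = 3) in peripheral axon controls to 10571 ± 4016 (SD, n = 4) in the Cre somas of batch 1. It ranked between place 1 and place 7 of all genes by group mean. Tmsb10 and Actb came next in all groups, Pfn1 and Cfl1 followed, except that Dstn stood above Pfn1 in the soma controls of batch 2, and Dstn, Pfn2 and Cfl2 were lower. Actg1 was last in 6 groups, Pfn2 in peripheral axon controls and Cfl2 in the Cre somas of batch 2. This order depends in part on the length used. With the longest transcript in place of all exons, Cfl2 was last and Pfn1 stood above Dstn in the soma controls of batch 2. Together the 9 genes took 1.18 ± 0.322% of all counts in the Cre central axons and 2.40 ± 0.517% in the Cre somas of the same batch (SD, n = 4 each). In batch 2 they took 1.18 ± 0.413% in Cre peripheral axons and 1.89 ± 0.191% in Cre somas (SD, n = 4 each). The ranges of these shares did not overlap between axon and soma in batch 1 (0.893 to 1.64% against 1.94 to 2.97%), and overlapped in batch 2, where the highest axon library lay just above the lowest soma library (0.735 to 1.69% against 1.68 to 2.14%). Tmsb4x gave the largest part, with means of 5741 CPM in Cre central axons and 14493 CPM in the Cre somas of batch 1. Mean shares in axon and soma controls were 0.845 ± 0.346% and 2.08 ± 1.27% in batch 1 (SD). In batch 2 they were 0.821 ± 0.391% and 1.22 ± 0.216%.

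Per kilobase, beta-actin was the more abundant actin in all 31 libraries. Actb (ENSMUSG00000029580, chr5:142903115-142906754, minus strand) was at 1732, 1348, 1649.6 and 1474 CPM in the Cre central axons and at 3132, 1822, 2449 and 3008 CPM in the Cre somas of that batch, with no overlap. Cre peripheral axons had 1082, 2616, 2229.7 and 1825 CPM, and the Cre somas of batch 2 had 2640.1, 4558, 4192 and 5371 CPM, again with no overlap, though the highest axon and the lowest soma nearly met. The controls were at 2671, 866, 1691 and 2758 CPM (central axon), 1361, 1872 and 1379.8 CPM (peripheral axon), and 1954, 2166, 1440.3 and 1602 CPM (soma batch 2). In the soma controls of batch 1, 3 libraries were at 1007 to 1078 CPM and library b at 8617 CPM. That library also had 571 CPM over the pseudogenes that share 50-base stretches with the actins, against at most 52.9 CPM in any other library.

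Gamma-actin differed more between the batches than between compartments. Actg1 (ENSMUSG00000062825, chr11:120345690-120348542, minus strand) was at 7.83, 5.11, 9.77 and 4.31 CPM in the Cre central axons and at 12.1, 7.89, 3.19 and 0.397 CPM in the Cre somas of batch 1. The controls of batch 1 had 3.23, 0.128, 14.4 and 0.614 CPM in central axon and 9.32, 1.08, 0 and 0.501 CPM in soma, where the count of 0 allows up to 0.352 CPM. In batch 2 the Cre somas had 578, 267, 479 and 677 CPM, and the soma controls 545, 40.2, 152 and 157 CPM. Cre peripheral axons had 92.2, 66.4, 49.8 and 90.3 CPM, and their controls 266, 76.3 and 113 CPM. All 16 libraries of batch 1 therefore lay below all 15 of batch 2. Actg1 was the 1 member with such a gap, and 2.11% of the genes tested (315 of 14899) had one in the same direction.

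Between the Cre somas of the batches, both labelled as lumbar ganglia, Actg1 was lower in batch 1 by a log2 fold change of -6.36 ± 0.77 (SE; edgeR adjusted p = 0.000129, n = 4 and 4). It was the 1 member of 9 called lower there, where 8.34% of all genes were called lower. The test was added after the data were seen. Actb, by contrast, had a log2 fold change of -0.69 ± 0.32 (SE, adjusted p = 0.258). The Actg1 call held in all 8 fits that left out 1 library.

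The genes whose pattern over the 31 libraries was most like that of Actg1, among 8914 compared, were Rbm3 (a cold-inducible RNA-binding protein, Spearman rho 0.939), Gapdh (a glycolytic enzyme, rho 0.936) and Trmt112 (a partner of methyltransferases, rho 0.918). Libraries share their batch, so these values are descriptions. All 3 were lower in batch 1 with no overlap. They were picked for their likeness to Actg1 over the same libraries, so this is no separate evidence for the gap. Gapdh was at 0.125 to 139 CPM against 154 to 1462 CPM. Rbm3 was at 1.51 to 45.9 against 51.1 to 375 CPM, and Trmt112 at 0 to 11.1 against 42.2 to 149.8 CPM. Of the 50-base stretches in the transcripts of Actg1, 37.4% also occur in transcripts of another gene, against 9.12% for Actb, 25.1% for Gapdh, 54.0% for Trmt112 and 9.71% for Rbm3. Among the other members, Tmsb10 had 27.0% and Cfl1 18.3%, and their levels overlapped between the batches. Tmsb10 was at 321 to 2626 CPM in batch 1 and 350 to 2238 CPM in batch 2. Cfl1 was at 789 to 2515 and 452 to 2152 CPM. The handling of reads that fit several genes is not given in the sources used here, and its part in the gap between batches was not tested. The level of Actg1, and any comparison of it across batches, is uncertain while the cause of the gap is not known.

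**Figure D2:**
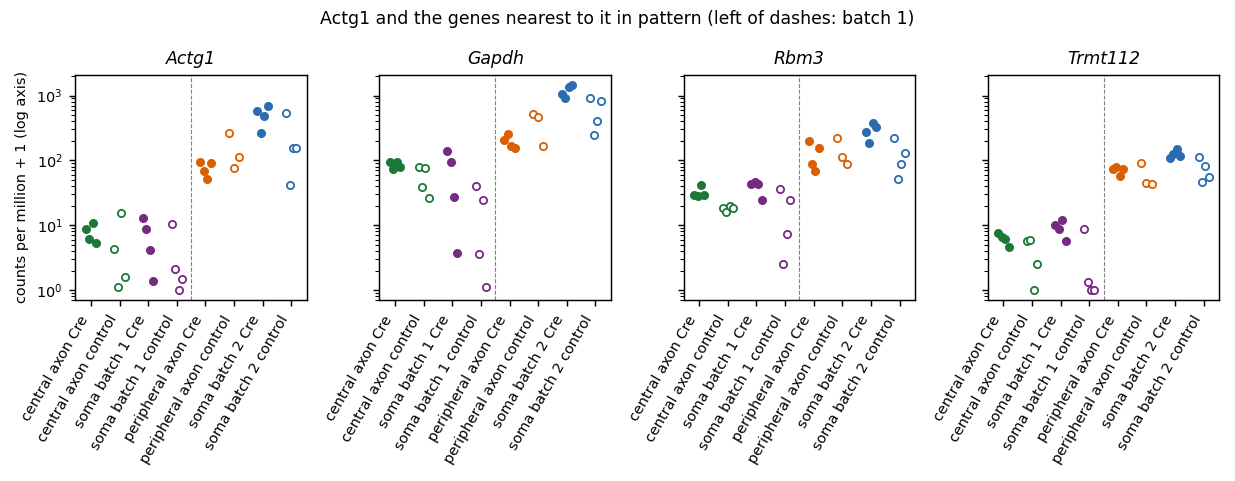
CPM plus 1 (log axis) of Actg1 and the 3 genes nearest to it in pattern, 1 point per library. Filled points are Cre and open points controls, and the dashed line parts batch 1 (left) from batch 2. In each panel all 16 libraries of batch 1 lie below the 15 of batch 2, for Actg1 at 0 to 14.4 against 40.2 to 677 CPM.

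The 2 profilins had different profiles. Pfn1 (ENSMUSG00000018293, chr11:70651850-70654644, minus strand), the profilin found in most tissues, was at 1669, 912, 1641 and 679 CPM in Cre central axons and at 2709.7, 2132, 2837 and 738 CPM in the Cre somas of that batch. The lowest soma library lay among the axons. Cre peripheral axons had 741, 789, 602 and 686 CPM and the somas of batch 2 had 1134, 1563, 1842 and 1467 CPM, with no overlap. Control libraries ran from 213 to 1298 CPM in central axon, 648 to 1051 in peripheral axon, 1429 to 3369 in soma batch 1 and 444 to 998 CPM in soma batch 2.

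Pfn2 (ENSMUSG00000027805, chr3:57841895-57848079, minus strand), the profilin typical of neurons, varied least of the 9 in the Cre central axons (8.83% of the mean). It was at 551, 584, 579.7 and 673 CPM in Cre central axons and at 563, 554, 535 and 683 CPM in the Cre somas, with full overlap. In batch 2 it was at 153, 286, 172 and 233 CPM in Cre peripheral axons and at 439, 502, 576 and 545 CPM in the Cre somas, with no overlap. Peripheral axon controls were at 262, 79.7 and 138 CPM, within and below the range of the Cre libraries. The libraries of all the other 6 groups lay between 355 and 745 CPM, above every peripheral axon library.

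Among the filament-severing genes, Cfl1 was highest. Cfl1 (ENSMUSG00000056201, chr19:5490455-5495201, plus strand), the main cofilin of non-muscle cells, was at 1421, 1052, 1403 and 1077 CPM in Cre central axons and at 1743, 1948, 1903 and 851 CPM in the Cre somas of batch 1. The lowest soma library lay below the axons. It was at 726, 862, 574 and 856 CPM in Cre peripheral axons and at 1737, 1749.8, 1590.0 and 2152 CPM in the Cre somas of batch 2, with no overlap. Snx32 covers 16.5% of its exons on the other strand, and 18.3% of its 50-base stretches occur in other genes, so a small part of its counts is uncertain. Control libraries ran from 452 to 2515 CPM. Pseudogenes that share such stretches with Cfl1 summed to 262 CPM in soma batch 1 control b, where Cfl1 was at 861 CPM. In any other library they summed to at most 66.1 CPM.

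Cfl2 (ENSMUSG00000062929, chr12:54858809-54862877, minus strand), the cofilin best known from muscle, was at 204 to 298 CPM in Cre central axons and 246 to 313 CPM in the Cre somas of batch 1. Cre peripheral axons had 188 to 312 CPM and the somas of batch 2 had 293 to 388 CPM, so both pairs of ranges overlapped. The soma controls of batch 1 were spread from 66.5 to 1257 CPM, and all other controls from 133 to 395 CPM. Dstn (ENSMUSG00000015932, chr2:143915320-143943324, plus strand), the relative of cofilin that favours disassembly, was at 464, 331, 376 and 237 CPM in Cre central axons and 614, 604, 437 and 379.8 CPM in the Cre somas of that batch. It was at 348, 338, 296 and 326 CPM in Cre peripheral axons and 789, 505, 806 and 732 CPM in the Cre somas of batch 2, with no overlap. Its spread over the Cre peripheral axons was the smallest of the 9 in that group, at 6.90% of the mean.

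Tmsb4x (ENSMUSG00000049775, chrX:167207093-167209315, minus strand), whose product holds most of the monomer reserve in many cells, was at 8876, 5765, 4273 and 4047 CPM in Cre central axons. The Cre somas of batch 1 had 9234, 11139.6, 16067 and 21532 CPM, all above the axons. Cre peripheral axons had 3500.0, 5837, 11711 and 4184 CPM, and the Cre somas of batch 2 had 7508, 6829, 10649 and 6336 CPM. Here the third axon library was the highest of all 8. Controls ran from 838 CPM in peripheral axon to 22618 CPM in soma batch 1 control 3.

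Tmsb10 (ENSMUSG00000079523, chr6:72957347-72958748, minus strand), its paralogue and a marker of growing neurons, was at 1392, 837, 580.3 and 539 CPM in Cre central axons and at 1183, 1341, 2626 and 2239 CPM in the Cre somas of batch 1. One axon library thus lay within the soma range. Cre peripheral axons had 394, 1902, 1090.3 and 1413 CPM and the Cre somas of batch 2 had 1599, 2238, 917 and 1364 CPM, with wide overlap. Controls of Tmsb10 ran from 321 to 779 CPM in central axon and 350 to 1096 CPM in peripheral axon. In soma they ran from 580 to 2495 CPM in batch 1 and 379 to 1739 CPM in batch 2. The control range overlapped the Cre range in each compartment. Of the 50-base stretches of Tmsb10, 27.0% occur in other genes.

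**Figure D3:**
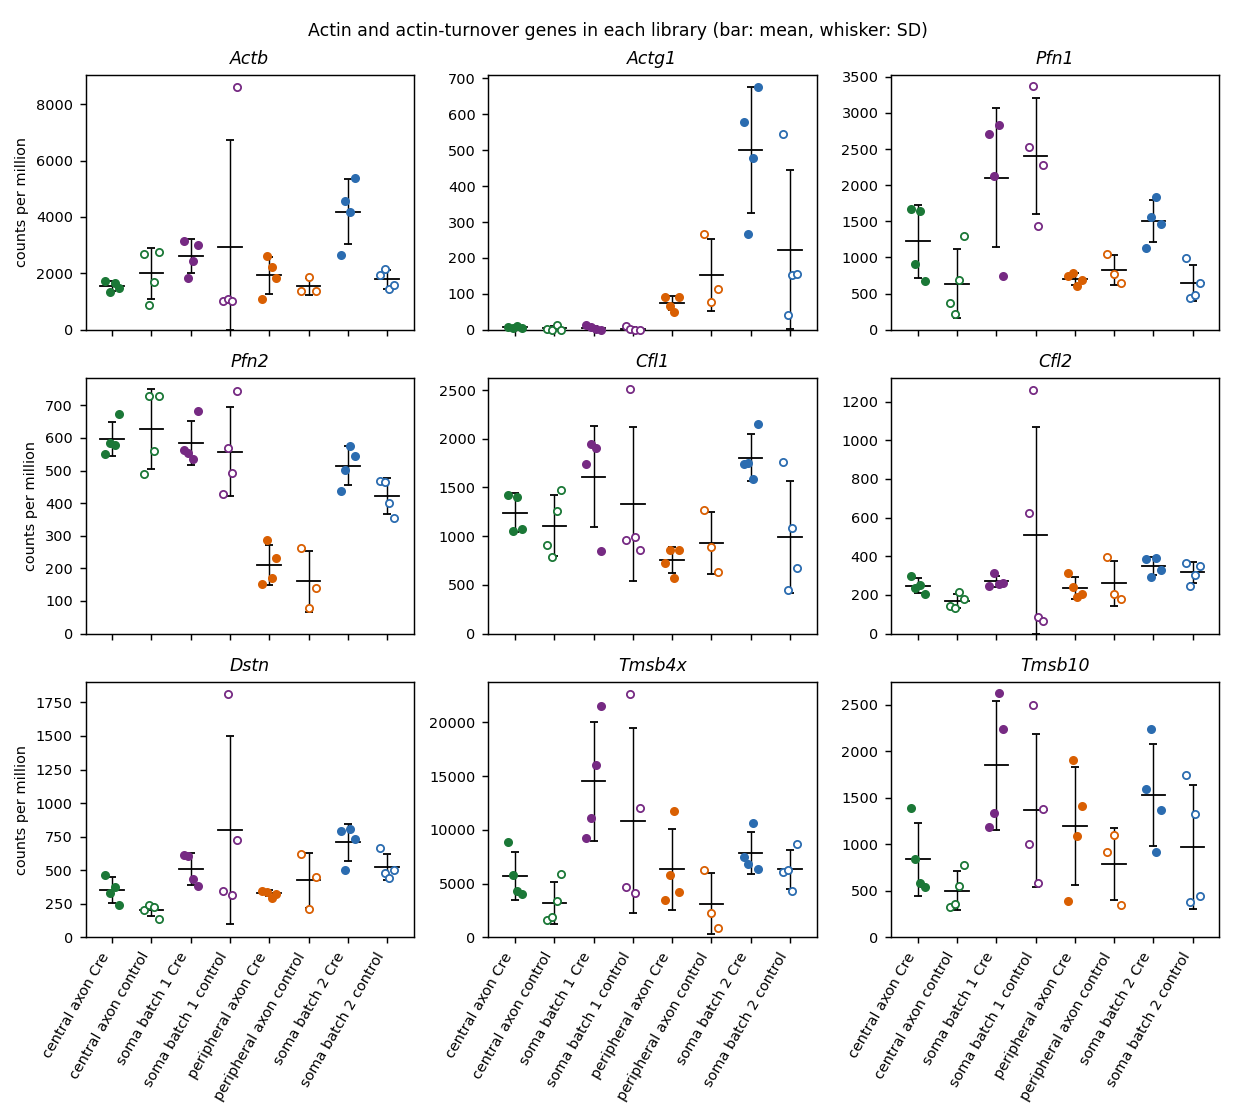
CPM of each of the 9 genes in every library, by group, 1 point per library with filled points for Cre and open points for controls. Bars are means and whiskers are SD over the libraries of a group (n = 4, or 3 for peripheral axon controls), cut off at 0. Pfn2 is lower in the 7 peripheral axon libraries than in all others, and soma batch 1 controls spread widely for Actb, Cfl2, Dstn and Tmsb4x.

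Cre and control libraries were compared to ask whether the tagged ribosomes carried more of each mRNA than the purification recovers without them. No member was called in any of the 4 compartments at an adjusted p under 0.05 (edgeR). In central axons 0 of 9 were called, where 0.0141% of all genes were (2 of 14189), with 1 member at an unadjusted p under 0.05 and 0 called by DESeq2. Log2 fold changes ran from -0.33 ± 0.38 for Actb to 1.00 ± 0.55 for Pfn1 (SE), and 7 of 9 lay above 0. The member with the smallest p was Dstn, whose Cre libraries (237 to 464 CPM) lay mostly above the controls (139 to 239 CPM), with a log2 fold change of 0.88 ± 0.34 (SE, adjusted p = 0.838).

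In peripheral axons 0 of 9 members and 0.0% of all genes were called (0 of 13970 by edgeR, 514 at an unadjusted p under 0.05, 27 by DESeq2). No member had an unadjusted p under 0.05, and DESeq2 called none of the 9. Values ran from -0.94 ± 0.46 (Actg1) to 1.15 ± 0.82 (Tmsb4x), with 5 of 9 below 0. Without peripheral axon control 1, only 1 of 9 lay below 0 and the members' median was 0.32 in place of -0.07, so no direction is given for them there. Fibroblast markers reached 3816 to 6686 CPM in these Cre libraries and 5224 to 19577 CPM in the controls, and their part was not tested.

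In the somas of batch 1, 0 of 9 members were called, against 4.42% of all genes, with none at an unadjusted p under 0.05 and none called by DESeq2. All 9 had negative values, from -5.12 ± 2.44 (Cfl2) to -0.71 ± 1.85 (Actg1), but this rests on soma batch 1 control 3 and its TMM factor: without that library the values ran from -0.66 to 0.92 with 4 of 9 below 0, and with library size alone 4 of 9 lay below 0. No direction is given for these genes there. The median over all genes was -0.45 with that library and 0.37 without it.

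In the somas of batch 2, all 9 genes had higher values in Cre than in control libraries under each alternative run, but none passed the adjusted threshold, and 0.0% of all genes did (0 of 15280 by edgeR, 2503 at an unadjusted p under 0.05, 1162 by DESeq2). The largest were Actb at 1.50 ± 0.36 (SE, edgeR adjusted p = 0.0774) and Pfn1 at 1.49 ± 0.36 (adjusted p = 0.0799), and the smallest was Cfl2 at 0.41 ± 0.26. Actg1 (1.39), Cfl1 (1.12), Dstn (0.70) and Pfn2 (0.56) also had an unadjusted p under 0.05, so 6 of 9 did. After TMM scaling, the Cre and control libraries of Actb, Pfn1 and Cfl1 did not overlap, 3 of 9 against 8.12% of all genes in that direction; before it, those of Cfl1 did overlap. Without soma batch 2 control 5, the deepest control, 4 of 9 were called higher (Actb, Actg1, Pfn1 and Cfl1), where 1001 of 15612 genes were called higher and 825 lower, and DESeq2 called Actb and Pfn1 with all libraries. Markers of other cells moved with this comparison without overlap: fibroblast markers summed to 173 to 364 CPM in Cre and 907 to 3656 CPM in control libraries, Schwann cell markers to 662 to 824 and 1179 to 2922 CPM, and neuronal markers to 26402 to 31190 and 16506 to 24744 CPM. Nociceptor markers overlapped, at 2740 to 4636 CPM in Cre and 1730 to 3162 CPM in control libraries. The part of these cells in the values was not tested.

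**Figure D4:**
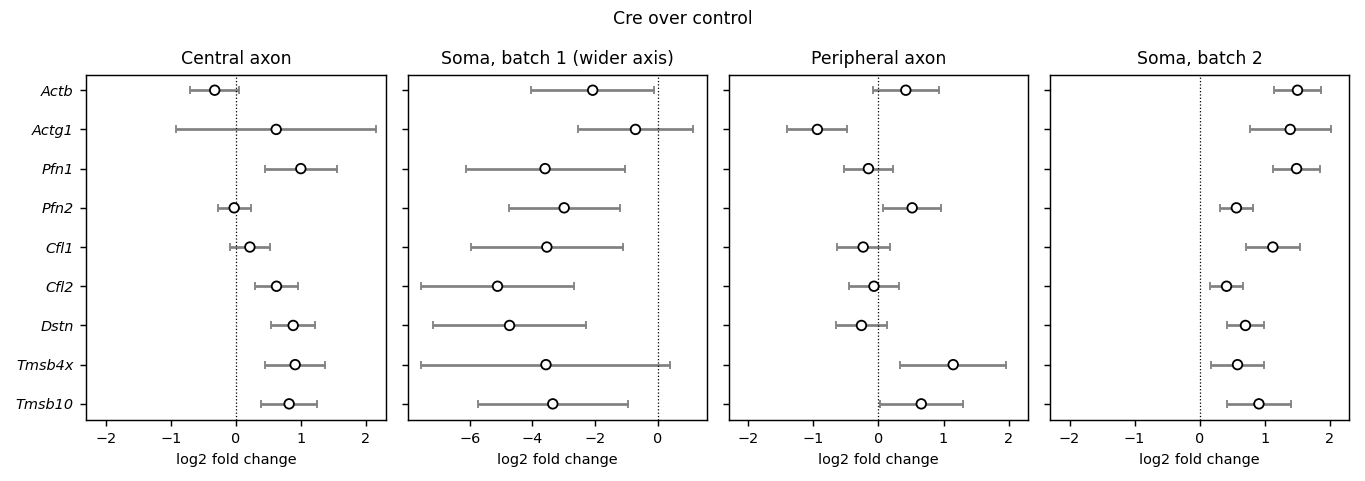
Log2 fold change of Cre over control (points) with its SE (whiskers) for the 9 genes in each compartment, from edgeR fits over all genes. All points are open because none passed an adjusted p of 0.05. The soma batch 1 panel has a wider axis, and its values change sign for several genes without soma batch 1 control 3 or with library size alone; in soma batch 2 all 9 lie above 0.

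The question of how actin mRNAs in the axon compare with those in the cell body was put to the Cre libraries of each batch. In central axons, Actb, Tmsb4x and Tmsb10 fell relative to soma, 3 of the 9 members, where 5.11% of all genes were called lower (740 of 14480). Their log2 fold changes were -1.18 ± 0.36 (SE, adjusted p = 0.0440), -1.73 ± 0.50 (adjusted p = 0.0357) and -1.55 ± 0.46 (adjusted p = 0.0393), by edgeR with n = 4 and 4. The other 6 did not pass: Pfn1 at -1.22 ± 0.50, Dstn at -0.95 ± 0.34, Cfl1 at -0.83 ± 0.38, Cfl2 at -0.54 ± 0.29, Pfn2 at -0.41 ± 0.28 and Actg1 at -0.25 ± 0.85. All 9 values lay below 0 with TMM scaling of these libraries, Actg1 not in every alternative, and 7 of 9 with library size alone, where Pfn2 and Actg1 lay above it and the median over all genes moved from 0.05 to 0.50. The members' median was -0.95.

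After TMM scaling, the axon and soma libraries of Actb, Pfn2, Tmsb4x and Tmsb10 did not overlap, 4 of 9 against 8.67% of all genes in that direction; before it, those of Pfn2 and Tmsb10 overlapped. These calls lie close to the threshold. Leaving out 1 library gave between 0 and 6 calls, with 0 in 6 of the 8 fits, 4 without central axon Cre 1 and 6 without soma batch 1 Cre 4. Over all genes, 1376 of 14985 were called lower without central axon Cre 1 and 981 of 15165 without soma batch 1 Cre 4, against 211 to 467 in the 6 fits that called no member. When the controls of the batch were fitted together with these libraries, none of the 9 was called. Over all genes, 15 were called in that fit in place of 1990.

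In peripheral axons, 7 of the 9 fell relative to soma, where 12.5% of all genes were called lower (1929 of 15467). Actg1 had the largest fall, at -2.97 ± 0.33 (SE, edgeR adjusted p = 0.000104, n = 4 and 4). Pfn2 (-1.49 ± 0.30, adjusted p = 0.00351), Cfl1 (-1.46 ± 0.29, adjusted p = 0.00315), Dstn (-1.32 ± 0.27, adjusted p = 0.00351) and Pfn1 (-1.31 ± 0.30, adjusted p = 0.00699) followed. Actb (-1.29 ± 0.42, adjusted p = 0.0377) and Cfl2 (-0.79 ± 0.25, adjusted p = 0.0306) lay nearer the threshold. The thymosins did not pass, with Tmsb4x at -0.47 ± 0.51 and Tmsb10 at -0.50 ± 0.47 (adjusted p = 0.509 and 0.441).

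The libraries of all 7 called genes did not overlap after TMM scaling, against 20.1% of all genes in that direction; before it, those of Cfl2 overlapped. Actg1, Pfn1, Pfn2, Cfl1 and Dstn were called in all 8 fits that left out 1 library, and Actb and Cfl2 in 4 each. Schwann cell markers were higher in these axon libraries than in their somas, as given above, and their part in these falls was not tested.

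**Figure D5:**
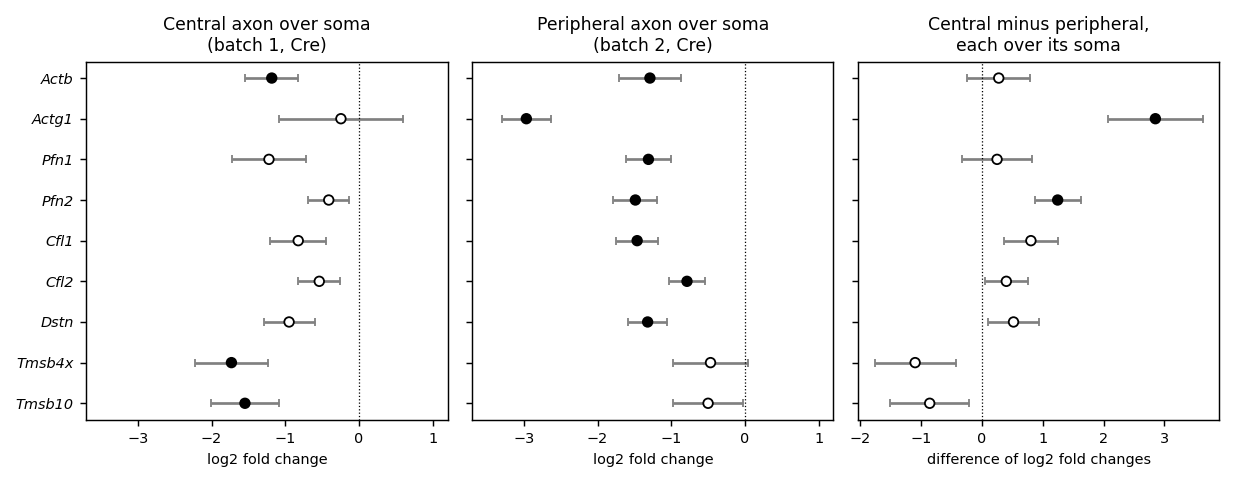
Log2 fold change of axon over soma in Cre libraries (left and middle) and the difference between both (right), with SE as whiskers, from edgeR fits over all genes. Filled points have an adjusted p under 0.05. All 9 genes lie below 0 in both axons, except in central axons, where Pfn2 lies above 0 with library size alone and Actg1 does so there, with all groups in the fit, with the replicate block and without soma batch 1 Cre 1; Actg1 and Pfn2 are filled in the right panel.

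The controls were used as the background of the same contrast, by testing the axon to soma difference of Cre libraries minus that of controls. In batch 1, 0 of 9 members and 0.0% of all genes were called (0 of 15355 by edgeR, 3133 at an unadjusted p under 0.05, 567 by DESeq2, which called none of the 9). Dstn was the 1 member there with an unadjusted p under 0.05, at 2.17 ± 0.95 (SE, adjusted p = 0.203). Leaving out 1 library moved this value between 0.73 and 6.14. The fit holds soma batch 1 control 3, with Dstn at 1815 CPM against 313 to 727 CPM in the other soma controls of batch 1. In batch 2, 0 of 9 members and 0.00636% of all genes were called (1 of 15717 by edgeR, 1531 at an unadjusted p under 0.05, 352 by DESeq2). There 4 members had an unadjusted p under 0.05: Pfn1 at -1.71 ± 0.52 (adjusted p = 0.314), Actg1 at -2.40 ± 0.86 (adjusted p = 0.360), Cfl1 at -1.43 ± 0.59 (adjusted p = 0.441) and Dstn at -1.04 ± 0.49 (adjusted p = 0.499), and DESeq2 called Pfn1. The falls from soma to axon were thus not shown to be larger in Cre than in control libraries.

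Central and peripheral axons were then compared, each relative to the Cre somas of its batch. Actg1 and Pfn2 differed, 2 of 9 called higher in central axons, where 7.2% of all genes were (1204 of 16725). For Pfn2 the difference was 1.25 ± 0.38 (SE, edgeR adjusted p = 0.0345), with -0.41 in central and -1.49 in peripheral axons in the fits of each batch. For Actg1 it was 2.85 ± 0.78 (adjusted p = 0.0216), with -0.25 and -2.97, where its low counts in batch 1 (0.397 to 12.1 CPM in the Cre libraries) stand against 49.8 to 677 CPM in batch 2. The call of Actg1 held in all 16 fits without 1 library and that of Pfn2 in 7 of 16. The thymosins lay the other way, at -1.10 ± 0.67 (Tmsb4x, adjusted p = 0.292) and -0.86 ± 0.65 (Tmsb10, adjusted p = 0.412), so a difference between the axons was not shown for them. Axon type and batch cannot be told apart beyond what the somas of each batch correct. In the controls, Pfn2 was at 489 to 730 CPM in central and 79.7 to 262 CPM in peripheral axons. Soma controls had 427 to 745 CPM in batch 1 and 355 to 468 CPM in batch 2. The part of background RNA in the difference for Pfn2 was not tested.

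The balance between paralogues was tested as the log2 ratio of their levels per kilobase of exon in each library (0.5 added to each count), with an exact 2-sided permutation test over 10 ratios, for which the smallest p that 4 against 4 libraries allows is 0.0286. None passed adjustment. After adjustment over the 10, a ratio could pass only if at least 6 of them were at that smallest p, so the outcome says little about differences in balance. The smallest p was 0.0571 (adjusted p = 0.286, exact permutation test) for 2 ratios, both in peripheral axons. Cfl2/Cfl1 was at -1.89 ± 0.36 in Cre peripheral axons and -2.57 ± 0.32 in somas (SD, n = 4 each), and Actg1/Actb at -4.66 ± 0.90 and -3.09 ± 0.78. In central axons the ratio Actg1/Actb was -7.89 ± 0.42 in axons and -9.51 ± 2.24 in somas (exact permutation p = 0.2), and Tmsb10/Tmsb4x differed by 0.16 (exact permutation p = 0.314).

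A list of 82 other genes of the actin system gave the members their setting. In central axons 1 of 77 tested was called higher than in soma and 4 lower, where 8.63% and 5.11% of all genes were: Spire1, which nucleates filaments, rose (1.45 ± 0.33, adjusted p = 0.0139), and Pls3, a bundling protein (-1.61 ± 0.37, adjusted p = 0.0139), Gsn, the severing protein gelsolin (-1.19 ± 0.28, adjusted p = 0.0151), and Add2, an adducin (-1.15 ± 0.33, adjusted p = 0.0351), were among those that fell. Spire1 was at 50.5 to 98.8 CPM in Cre central axons, below their controls at 125 to 197 CPM. The part of background RNA in its rise over soma was not tested. The 9 tested subunits of the Arp2/3 complex, which starts filament branches, all had values below 0 (median -0.81) with none called. In peripheral axons 19 of 76 were called higher and 10 lower, where 18.7% of all genes were called higher and 12.5% lower. The median was -0.09 over the list, -1.31 over the members and -0.03 over all genes.

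Those that rose most clearly in peripheral axons were Add3 (2.47 ± 0.25), the tropomyosin gene Tpm2 (4.77 ± 0.52) and the kinase gene Rock1 (2.90 ± 0.33). Add3 was at 132 to 176 CPM in Cre peripheral axons and 152 to 568 CPM in their controls. Tpm2 was at 97.9 to 444 against 512 to 3462 CPM, and Rock1 at 78.4 to 189 against 105 to 250 CPM. The part of background RNA in these rises over soma was not tested. Those that fell were Coro1a, a coronin (-1.96 ± 0.34), Arpc4, an Arp2/3 subunit (-1.60 ± 0.28), and Capzb, which caps growing ends (-1.32 ± 0.28), with adjusted p between 6.26e-05 and 0.0048 over these 6 genes. Of the 4 muscle actin genes, all 3 that were tested rose (median 4.36), beside skeletal muscle markers at 620 to 2440.5 CPM in the Cre peripheral axons and 15.5 to 80.0 CPM in the somas. Acta1, the actin of skeletal muscle, is in both lists, and the part of muscle RNA in these values was not tested. Central against peripheral axons, relative to soma, 3 of 78 were called higher and 14 lower, where 7.2% and 5.88% of all genes were. Pak1 (2.75 ± 0.54), Wasf1 (1.42 ± 0.44) and the cofilin kinase gene Limk2 (1.45 ± 0.46) were higher, and the formin gene Diaph3 (-4.48 ± 0.79), Arpc1a (-2.23 ± 0.43) and Gsn (-1.74 ± 0.36) lower, with adjusted p between 0.00161 and 0.0436. In central and peripheral axon controls, Pak1 was at 97.7 to 191 and 0 to 50.2 CPM, and Wasf1 at 168 to 348 and 8.48 to 97.5 CPM. Limk2 was at 49.5 to 486 and 59.3 to 172 CPM there, and Diaph3 at 0 to 20.1 and 22.0 to 47.5 CPM. Arpc1a was at 185 to 404 and 320 to 957 CPM, and Gsn at 0.384 to 328 and 258 to 719 CPM. In Cre central axons Diaph3 was at 1.70 to 5.92 CPM. The part of background RNA in these differences was not tested. No gene of the list was called between Cre and control in any compartment.

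Across the 31 libraries the members also varied with each other. Pfn1 and Cfl1 were the closest pair (Spearman rho 0.833), followed by Dstn and Tmsb4x (0.777) and the 2 thymosins (0.774), while Actg1 was at 0.169 with Actb and -0.36 with Pfn2. The gene nearest to Cfl1 was Eif5a, a translation factor (rho 0.954), which was also nearest to Pfn1 (0.873). Nrn1 (neuritin, an axonal growth protein) was nearest to Dstn (0.937), Basp1 (a growth cone membrane protein) to Pfn2 (0.828), Txn1 (thioredoxin) to Tmsb4x (0.923), Tpi1 (a glycolytic enzyme) to Cfl2 (0.876), Trarg1 to Tmsb10 (0.897) and Rbfox2 (a splicing factor) to Actb (0.83). These are descriptions over libraries that share batch, tissue and depth.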

How the data were processed

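Raw read counts per gene were deposited by the authors in 2 tables, 1 per batch; per the file headers each column is 1 library, and 2 soma control columns of batch 1 carry the same name (replicates a and b here). Libraries were made with a SMART-Seq v4 kit from under 1 ng of RNA per the labels' protocols; the submitters' processing notes name STAR 2.7.2b and mm10. The counting program, strand setting and handling of multi-mapping and duplicate reads are not given in the sources used here. Identifiers were those of GENCODE M21. The 9 genes and all lists were chosen with earlier results of these data known. From the counts, edgeR 4.0.16 (filterByExpr, TMM, quasi-likelihood test, Benjamini-Hochberg over all genes tested; only the groups compared entered each fit) gave log2 fold changes; the fits were tested on simulated data first. All 9 genes passed the filter in every comparison. Alternatives were RLE or no scaling, no filter, DESeq2 1.42.0, all groups of a batch, a replicate block, and leaving out each library. One comparison, between the Cre somas of both batches, was added after the data were seen. Ratios used counts plus 0.5 per kilobase of exon. CPM are not corrected for composition; normalised CPM use TMM. Of the actin list, up to 3 genes per direction with the smallest adjusted p were named, and per member the genes nearest in pattern, of which only Actg1's 3 are all printed. No per-sample column was left out.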

Additional observations from a re-analysis of the deposited data

Results flagged for a closer look

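In 3 of the groups of 4 libraries, 1 library of a member lay farther from the other 3 than Dixon's test at 95% allows; chance flags about 1 in 20 groups, and 63 combinations of member and group were tested. All 3 are soma controls of batch 1. Actb was at 8617 CPM in control b (1007 to 1078 CPM in the others), Actg1 at 9.32 CPM in control 1 (0 to 1.08 CPM) and Cfl1 at 2515 CPM in control 3 (861 to 992 CPM). Tests of the difference between axons, each relative to its soma, called Actg1 (2.85) and Pfn2 (1.25), as given above.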

How the results depend on the processing

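The number of members called changed by over 1.5 times as follows, and the cause was not tested. For central axon against soma it was 3, and 1 with library size alone, 2 without the filter, 5 with DESeq2 and 0 with all groups in the fit; leaving out 1 library gave 0 to 6. For batch 2 soma Cre against control it was 0, and 2 without the filter, 2 with DESeq2 and 1 with all groups; without 1 library, 0 to 4. For peripheral axon against soma, Cre minus control, DESeq2 called 1. For central against peripheral axons, 1 was called without the filter, and 1 to 2 without 1 library. For the somas of the 2 batches, DESeq2 called 2. Peripheral axon against soma gave 6 or 7, and 5 to 7 without 1 library. Over all genes, in either direction, leaving out 1 library gave 822 to 2717 calls for central axon against soma, in place of 1990. It gave 0 to 1826 for batch 2 soma Cre against control, in place of 0. For central against peripheral axons it gave 1394 to 2856 in place of 2187, and for peripheral axon against soma 3220 to 6055 in place of 4818. Under the other settings only some counts over all genes are printed, so a change particular to the members was not shown.

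Signs turned for values that were not called. Actg1 in soma batch 1 Cre against control was 1.08 with library size alone, 0.70 without the filter and 0.99 with all groups (-1.42 to 0.92 without 1 library). Actg1 in central axon against soma was 0.20 with library size alone, 0.067 with all groups and 0.35 with the replicate block (-0.65 to 0.40 without 1 library), and Pfn2 was 0.036 with library size alone. Actg1 in central axon against soma, Cre minus control, was 0.96 with RLE, 0.71 without the filter and 0.95 with DESeq2 (-0.77 to 2.69 without 1 library). Without 1 library, Cfl2 in soma batch 1 ran from -5.47 to 0.056, Tmsb4x in the peripheral Cre minus control test from -0.041 to 1.40, and the Tmsb10/Tmsb4x ratio in peripheral axons from -0.42 to 0.29.

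A replicate block for central axon against soma, Cre, called 5 members (Actb, Pfn1, Dstn, Tmsb4x and Tmsb10) in place of 3; in Cre against control it called 0 in each compartment. The count over all genes with the block is not printed here, so a change particular to the members was not shown. Same-numbered central axon and soma libraries had deviations with r from -0.04 to 0.24 over 4 pairs, and 2 of 4 correlated best with their own number; the labels tie no number to an animal, so the numbers were not taken to pair the samples, and a shared animal cannot be told. No paired analysis was possible because no replicate numbers are shared for peripheral axon against batch 2 soma and the comparisons built on it, or between the somas of the batches; elsewhere the block was fitted. Counts over all genes moved more: 2 to 217 for central and 0 to 1162 for batch 2 soma Cre against control with DESeq2, 516 to 2244 in soma batch 1 with library size alone, and 1990 to 15 for central axon against soma with all groups. With the longest transcript as the length of a gene, 33 group means per kilobase moved by their SD or more, and 39 moved by less. At this depth a member at 0 counts allows up to 0.833 CPM in the shallowest library.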
